A study of Sus scrofa with 5 samples.

Results

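Integrins are the receptors by which epithelia and trophoblast hold on to extracellular matrix, and 10 integrin subunit genes of implantation and epithelial attachment (ITGA2, ITGA3, ITGA5, ITGA6, ITGAV, ITGB1, ITGB3, ITGB4, ITGB5 and ITGB6) were followed in porcine blastoids and in the porcine embryonic stem cells (pESCs) from which such blastoids are made. The 10 genes were listed by name and are 10 of the 30029 genes in the single-cell matrices. The data held 2 single-cell RNA-seq libraries of day 6 blastoids, kept in iBlastoid medium after aggregation of pESCs, and 3 bulk RNA-seq libraries of pESCs grown in 4FIXY medium. Per the study's methods, pESCs were derived from parthenogenetic blastocysts and kept on mouse feeder cells (the name of 1 pESC column begins otherwise, as given with the pESC values), blastoids with a cavity were picked by hand and dissociated, and the labels do not say whether the blastoid libraries came from separate inductions. The libraries are therefore replicates that may be technical, and a p-value measures only the spread between the sums of these libraries.

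An integrin on the cell surface is a pair of an alpha and a beta subunit, and the pair sets which matrix protein is bound. ITGB1 pairs with many alpha subunits: with ITGA2 it binds collagen, with ITGA5 fibronectin, and with ITGA3 or ITGA6 laminin. ITGA6 also pairs with ITGB4, the integrin of hemidesmosomes, while ITGAV pairs with ITGB3, ITGB5 or ITGB6 in receptors for RGD-containing proteins such as vitronectin, fibronectin and osteopontin. The ITGAV and ITGB6 pair is an epithelial receptor that also activates latent TGF-beta, and in the pig it is known as a receptor of trophectoderm for the osteopontin of the uterine lining.

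Cells were described by 5 gates, each set on a single gene that is no integrin. A cell entered a gate when it had at least 3 UMIs (counted RNA molecules) of the gate gene and a level of at least 25% of the 99th percentile of that gene in its library, and cells past more than 1 threshold were left out. The GABRP gate held 822 and 769 cells (library 1 and library 2), the TP63 gate 903 and 877 and the POU5F1 gate 633 and 912. The CRABP1 gate held 178 and 229 and the COL3A1 gate 406 and 344, of 7369 and 8175 cells in all. As many as 4054 and 4641 cells passed no threshold, so the gates do not stand for the whole blastoid. Median depth per cell ranged from 19460 UMIs in the COL3A1 gate of library 2 to 39186 in the POU5F1 gate of library 1, and 9 cell barcodes occurred in both libraries. All summed marker lists but that of the TP63 gate were highest in their own gate. Each list holds its gate gene, so this was partly set by the gating. In library 1, CRABP1 made up 5976 of the 6585 counts per 1e+06 UMIs (CPM) of its list. Beside the gate genes, S100A6 and TAC3 were highest in the GABRP gate and DNMT3B and UTF1 in the POU5F1 gate. PAX6 and NPY were highest in the CRABP1 gate, and COL1A1 and TWIST1 in the COL3A1 gate. Some listed genes did not follow. TFAP2A of the GABRP list was at 363 and 348 CPM there and at 383 and 365 CPM in the TP63 gate. SOX2 of the POU5F1 list was at 87.6 and 102 CPM there and at 92.7 and 94.1 CPM in the CRABP1 gate. The summed TP63 list was as high in the GABRP gate, at 2023 and 2059 CPM, as in the TP63 gate, at 2032 and 1934 CPM. KRT19 made up most of this sum, at 1595 and 1657 CPM in the GABRP gate and 1282 and 1243 CPM in the TP63 gate. The summed list therefore does not set these gates apart. Of the keratins of stratified epithelium in it, KRT5 was at 0.314 and 0.19 CPM and KRT15 at 1.05 and 0.533 CPM in the TP63 gate. KRT14 and KRT17 are not among the gene names of the matrices and could not be read. NANOG reached only 4.61 and 7.48 CPM in the POU5F1 gate, and CDX2 was at 1.15 and 1.44 CPM in the GABRP gate, so the gates are called by their genes. Of the trophectoderm list, GATA3 was at 197 and 188 CPM and ELF5 at 176 and 184 CPM in the GABRP gate. In the CRABP1 gate they were at 31 and 24.8 CPM and at 22.5 and 21.7 CPM. GATA2 of this list was higher in the TP63 gate, at 72.0 and 69.1 CPM, than in the GABRP gate, at 54.1 and 54.7 CPM. CDX2 was highest in the COL3A1 gate, at 4.31 and 7.37 CPM. The summed list was at 428 CPM in the GABRP gate of each library, 348 and 317 CPM in the TP63 gate, 203 and 155 CPM in the POU5F1 gate and under 100 CPM in the others.

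The members lie on 6 chromosomes of the pig genome (build Sscrofa11.1). ITGB6 spans chr15:67041516-67175409 on the minus strand, ITGAV chr15:91604666-91711843 and ITGA6 chr15:78504108-78591779 on the plus strand. ITGA3 lies at chr12:26234769-26269327 (plus), ITGB3 at chr12:16694466-16752228 (minus) and ITGB4 at chr12:5651292-5685601 (minus). ITGA5 lies at chr5:19587361-19610580 (minus), ITGB1 at chr10:56078393-56130608 (minus), ITGB5 at chr13:135468111-135587483 (plus) and ITGA2 at chr16:32336240-32440311 (plus).

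The 250 bases before the annotated start of 5 members are shown, as members of both main patterns: ITGB6, ITGA3 and ITGB5 were highest in the GABRP gate, and ITGA5 and ITGAV in the COL3A1 gate. Sequences are from RefSeq, 5′ to 3′ on the strand of the gene, and capitals mark matches on either strand to 1 of the 6 motifs searched: GGGCGG for SP1 factors, TGANTCA for AP-1, GCCNNNGGC for AP-2, AGATAA for factors of the GATA family, GGAATG for TEAD and CAGGTG for the E-box bound by ZEB and SNAI factors. Some motifs can overlap, and each was counted by itself.
ITGB6, chr15:67175410-67175659, minus strand: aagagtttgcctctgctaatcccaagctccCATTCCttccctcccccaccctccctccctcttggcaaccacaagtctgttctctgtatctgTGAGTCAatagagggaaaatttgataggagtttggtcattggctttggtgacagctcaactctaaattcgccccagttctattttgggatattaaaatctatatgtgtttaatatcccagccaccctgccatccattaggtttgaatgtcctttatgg
ITGA3, chr12:26234519-26234768, plus strand: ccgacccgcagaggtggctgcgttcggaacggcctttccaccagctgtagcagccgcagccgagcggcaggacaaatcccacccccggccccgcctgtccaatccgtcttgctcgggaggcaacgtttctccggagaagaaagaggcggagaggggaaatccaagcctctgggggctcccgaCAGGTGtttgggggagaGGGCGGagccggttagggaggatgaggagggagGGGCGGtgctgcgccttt
ITGB5, chr13:135467861-135468110, plus strand: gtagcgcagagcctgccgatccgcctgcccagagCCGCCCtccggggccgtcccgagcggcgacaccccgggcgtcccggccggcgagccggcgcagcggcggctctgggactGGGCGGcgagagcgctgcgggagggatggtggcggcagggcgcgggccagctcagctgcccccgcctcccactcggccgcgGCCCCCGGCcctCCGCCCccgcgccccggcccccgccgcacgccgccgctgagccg
ITGA5, chr5:19610581-19610830, minus strand: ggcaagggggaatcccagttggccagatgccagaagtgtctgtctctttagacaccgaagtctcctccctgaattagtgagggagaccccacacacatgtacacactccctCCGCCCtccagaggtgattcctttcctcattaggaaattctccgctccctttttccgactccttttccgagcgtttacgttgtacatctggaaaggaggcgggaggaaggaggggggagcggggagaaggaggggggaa
ITGAV, chr15:91604416-91604665, plus strand: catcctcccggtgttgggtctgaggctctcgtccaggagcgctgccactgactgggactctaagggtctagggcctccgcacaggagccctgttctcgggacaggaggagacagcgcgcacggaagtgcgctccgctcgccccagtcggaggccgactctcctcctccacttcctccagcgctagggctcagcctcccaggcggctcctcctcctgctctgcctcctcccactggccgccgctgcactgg
The ITGB6 window had a GC content of 44.8%, against a median of 57.6% over all 19556 windows of this length and 55.6% to 83.6% in the other 9 members. It held an AP-1 match that starts 158 bases before the annotated start and a TEAD match at 220 bases before it. Over all windows 5.27% held an AP-1 match and 10.3% a TEAD match, and among the members ITGB6 alone held an AP-1 match while ITGB1 also held a TEAD match. An SP1 match, present in 45.9% of all windows, was found in 8 of the 10 members and in neither ITGB6 nor ITGAV. ITGB6 has 4 annotated transcript starts, ITGAV 5, and ITGA2, ITGA5 and ITGB1 2 each, and each window is that of the outermost. A match is a description of letters, not of a bound factor.

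ITGB6 was the member with the largest ratio between its highest and its lowest gate. Its level in the GABRP gate was 60.6 and 59.2 CPM. In the TP63 gate it was 8.13 and 9.17 CPM, in the POU5F1 gate 2.47 and 2.06 CPM, and in the COL3A1 gate 3.11 and 1.84 CPM. In the CRABP1 gate 3 UMIs of ITGB6 were counted in library 1 and none in library 2, where 3 UMIs, the count that a 0 allows, would be 0.571 CPM. The GABRP gate stood apart from every other gate in both libraries. Cells that passed no threshold had ITGB6 at 4.90 and 3.82 CPM.

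Summed UMI counts per library and gate were compared with edgeR's quasi-likelihood test over 18019 genes, with Benjamini-Hochberg adjustment, and log2 differences are scaled by TMM (a factor per sum that centres the bulk of genes). The factors were lowest in the GABRP gate (0.870 and 0.871) and highest in the CRABP1 gate (1.14 and 1.12), so a fold can differ from the ratio of the CPM. ITGB6 was 7.98-fold higher in the GABRP gate than in the TP63 gate (log2 difference 2.996, SE 0.13, adjusted p = 3.29e-09), 32.0-fold higher than in the POU5F1 gate (adjusted p = 2.87e-11) and 26.0-fold higher than in the COL3A1 gate (adjusted p = 1.97e-10). Of all genes tested, 35.3% differed between the GABRP and TP63 gates at an adjusted p below 0.05, as did 59.5% between the GABRP and POU5F1 gates and 53.8% between the GABRP and COL3A1 gates. Over both libraries the ratio of CPM between the GABRP and CRABP1 gates was 196, with an exact counting interval from 67.1 to 953 that covers counting error only; 53.2% of all genes differed between these gates. The TP63 gate was above the POU5F1 gate (log2 difference 2.00, SE 0.17, adjusted p = 6.20e-07, with 54% of all genes called), while the POU5F1 and COL3A1 gates did not differ beyond their spread (adjusted p = 0.40, with 55.2% of all genes called).

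RNA outside cells can enter these low levels. Droplets with 10 to 100 UMIs, which hold no cell, had ITGB6 at 5.49 and 6.40 CPM. That level rests on only 9 and 15 UMIs. The POU5F1, CRABP1 and COL3A1 gates were below it. The TP63 gate, at 8.13 and 9.17 CPM, was above it, by a gap that so few droplet UMIs do not settle. Such a droplet level, here and for the other members, is the make-up of RNA outside cells. It is not the amount held by a cell, which was not measured. RNA of CRABP1, for example, was at 281 and 380 CPM in these droplets and at 17.5 and 32.6 CPM in the GABRP gate. To compare cells at equal depth, each cell was thinned to 10000 UMIs. A UMI of ITGB6 was then found in 35.5% and 35.6% of cells of the GABRP gate, in 6.98% and 7.79% of the TP63 gate, in 1.74% and 1.65% of the POU5F1 gate and in 1.23% and 1.16% of the COL3A1 gate. In the CRABP1 gate it was found in 0.562% of 178 cells and in 0 of 228 cells, which allows a share of up to 1.32% of cells with a UMI at this depth and sets no limit on the share of cells that express the gene. A share of 7.42% and 7.04% of cells of the GABRP gate held 3 or more UMIs of ITGB6, against 0.332% and 1.15% in the TP63 gate.

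**Figure D1:**
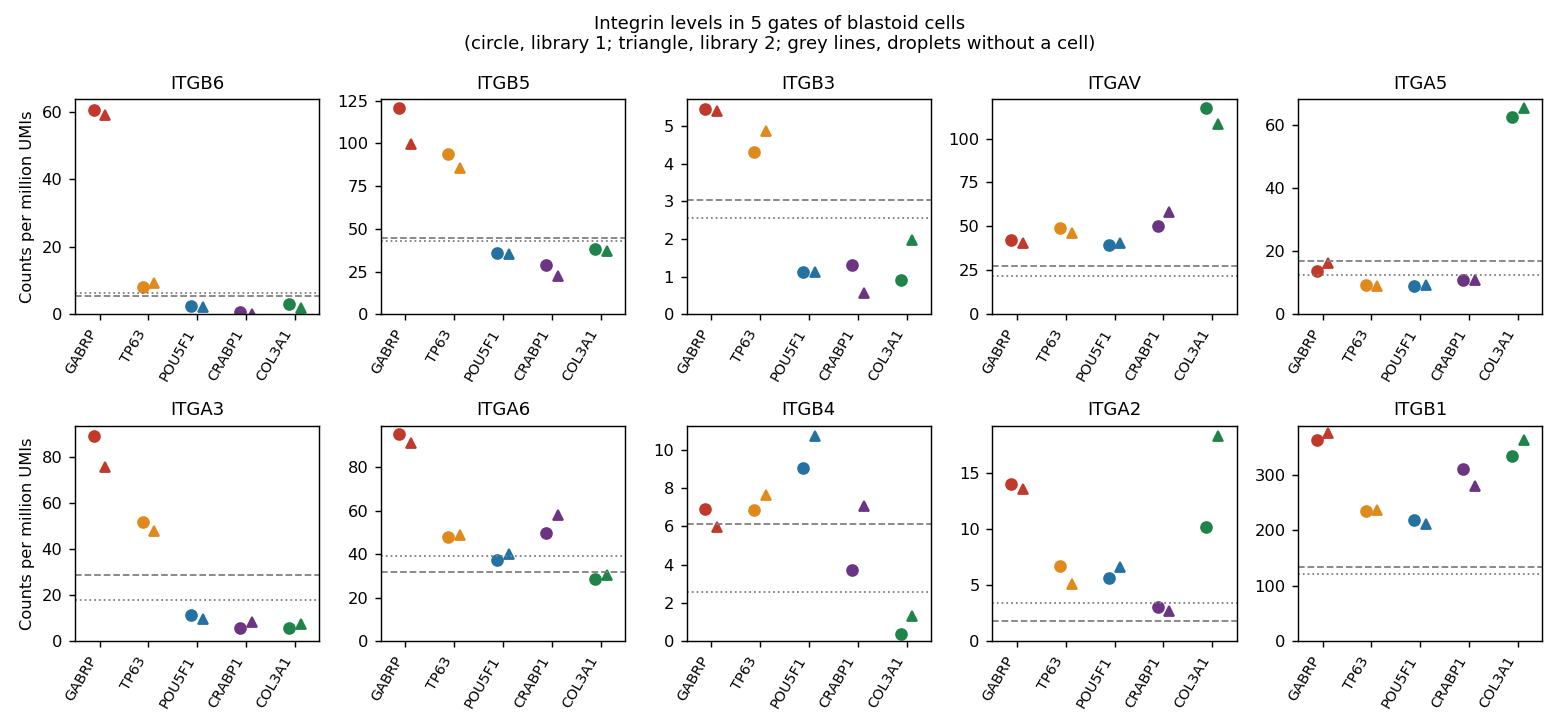
Level of each of the 10 integrin subunits in CPM (y axis, from 0, a scale of its own per panel) in the 5 gates (x axis) of blastoid library 1 (circles) and library 2 (triangles), with grey lines for droplets without a cell (dashed, library 1; dotted, library 2). ITGB6 stands at 60.6 and 59.2 CPM in the GABRP gate and under 10 CPM elsewhere, and ITGA5 at 62.7 and 65.3 CPM in the COL3A1 gate.

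ITGB5 and ITGB3, which also pair with ITGAV, were likewise highest in the GABRP and TP63 gates. ITGB8, another partner of ITGAV and no member, was not: it was at 83.1 and 69.7 CPM in the CRABP1 gate and at 9.34 and 9.77 CPM in the GABRP gate, its lowest. ITGB5, whose pair with ITGAV binds vitronectin, was at 121 and 99.9 CPM in the GABRP gate and at 94.1 and 85.9 CPM in the TP63 gate. It was at 35.8 and 35.5 CPM in the POU5F1 gate, 38.1 and 37.1 CPM in the COL3A1 gate and 29.1 and 22.5 CPM in the CRABP1 gate. The GABRP and TP63 gates did not overlap with the others in any library, and they differed from each other by 1.41-fold (log2 difference 0.50, SE 0.09, adjusted p = 0.00083, edgeR). The POU5F1 and COL3A1 gates did not differ beyond their spread (adjusted p = 0.14). Droplets without a cell had 44.5 and 42.7 CPM, above the POU5F1, COL3A1 and CRABP1 gates.

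ITGB3, known best from platelets and from the apical surface of uterine epithelium, was low throughout. Its level was 5.46 and 5.41 CPM in the GABRP gate and 4.33 and 4.87 CPM in the TP63 gate. It was 1.12 and 1.14 CPM in the POU5F1 gate, 1.31 and 0.571 CPM in the CRABP1 gate and 0.902 and 1.98 CPM in the COL3A1 gate. Droplets without a cell had 3.05 and 2.56 CPM, on only 5 and 6 UMIs, above the levels of the POU5F1, CRABP1 and COL3A1 gates. The GABRP gate was 5.76-fold above the POU5F1 gate (adjusted p = 7.89e-07, edgeR) and did not differ from the TP63 gate beyond the spread (adjusted p = 0.10).

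ITGAV, the alpha partner of these subunits, had another order. It was highest in the COL3A1 gate, at 117 and 108 CPM. The other gates lay between 39.7 CPM in the POU5F1 gate of library 1 and 58.5 CPM in the CRABP1 gate of library 2. The COL3A1 gate was 2.46-fold above the GABRP gate (log2 difference of GABRP minus COL3A1 of -1.30, SE 0.08, adjusted p = 1.38e-08, edgeR). The GABRP, TP63 and CRABP1 gates did not differ from each other beyond their spread, with adjusted p of 0.90 to 0.99 in those 3 pairs, and each lay above the POU5F1 gate, for example by 1.24-fold for the GABRP gate (adjusted p = 0.0037). For the GABRP gate this depends on the TMM factors: in CPM, at 42.5 and 40.5, it overlapped the POU5F1 gate, at 39.7 and 40.8, and lay below the TP63 gate, at 49.4 and 46.3, and the CRABP1 gate, at 50.3 and 58.5.

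ITGA5, the fibronectin receptor subunit, shared this preference. It stood at 62.7 and 65.3 CPM in the COL3A1 gate and at 13.8 and 16.2 CPM in the GABRP gate. In the TP63 gate it was 9.17 and 9.09 CPM, in the POU5F1 gate 8.85 and 9.28 CPM, and in the CRABP1 gate 10.9 and 10.9 CPM, all of which lay below the 17.1 and 12.4 CPM of droplets without a cell. The COL3A1 gate was 3.86-fold above the GABRP gate (adjusted p = 1.14e-09, edgeR) and 7.26-fold above the TP63 gate (adjusted p = 7.06e-11, a pair with 50.2% of all genes called). At 10000 UMIs per cell, 41.6% of cells of the COL3A1 gate held an ITGA5 UMI in each library, against a mean of 14.2% in the GABRP gate and of 7.87% in the TP63 gate. The TP63, POU5F1 and CRABP1 gates did not differ from each other beyond their spread in any of the 3 pairs (adjusted p of 0.44 to 0.72).

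Among the laminin receptors, ITGA3 followed the order GABRP, TP63, POU5F1. It was at 89.3 and 76.0 CPM in the GABRP gate and at 52.0 and 48.0 CPM in the TP63 gate. It was at 11.5 and 9.88 CPM in the POU5F1 gate, 5.68 and 8.57 CPM in the CRABP1 gate and 5.82 and 7.64 CPM in the COL3A1 gate. The GABRP gate was 1.90-fold above the TP63 gate (adjusted p = 1.23e-05, edgeR), 9.36-fold above the POU5F1 gate (adjusted p = 1.19e-10) and 13.8-fold above the COL3A1 gate (adjusted p = 1.87e-10). The CRABP1 and COL3A1 gates did not differ beyond their spread (adjusted p = 0.80), where 38.3% of all genes did. All gates but GABRP and TP63 were below the 28.7 and 17.9 CPM of droplets without a cell.

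ITGA6 was more even. It was at 95.4 and 91.1 CPM in the GABRP gate, 49.8 and 58.1 CPM in the CRABP1 gate and 47.9 and 48.9 CPM in the TP63 gate. The POU5F1 gate had 37.2 and 40.2 CPM and the COL3A1 gate 28.8 and 30.5 CPM. The GABRP gate was 2.22-fold above the TP63 gate (adjusted p = 1.80e-07, edgeR), and the TP63 and CRABP1 gates did not differ beyond their spread (adjusted p = 0.92), where 41.2% of all genes did. Every other pair of gates differed, the closest being POU5F1 over COL3A1 by 1.21-fold (adjusted p = 0.026). Droplets without a cell had 31.7 and 39.2 CPM, near the levels of the POU5F1 and COL3A1 gates.

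ITGB4, the hemidesmosome partner of ITGA6, was the single member with its highest level in the POU5F1 gate. It was at 9.07 and 10.7 CPM there, 6.90 and 5.96 CPM in the GABRP gate and 6.84 and 7.65 CPM in the TP63 gate. The CRABP1 gate had 3.72 and 7.05 CPM and the COL3A1 gate 0.401 and 1.32 CPM. Droplets without a cell had 6.10 and 2.56 CPM, on only 10 and 6 UMIs, so that in library 1 the GABRP and TP63 gates were near that level. The POU5F1 gate was 1.28-fold above the GABRP gate and 1.31-fold above the TP63 gate, neither beyond the spread (adjusted p = 0.14 and 0.10, edgeR), and 11.3-fold above the COL3A1 gate (adjusted p = 2.49e-06). It was also 1.95-fold above the CRABP1 gate (adjusted p = 0.012), where 43.8% of all genes were called. The annotation gives ITGB4 a 3′ UTR of 299 bases, the shortest of the 10 members, and a part of this in its level was not tested.

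ITGA2, a collagen receptor subunit, was highest at both ends of the set of gates. It was at 14.0 and 13.6 CPM in the GABRP gate and at 10.1 and 18.3 CPM in the COL3A1 gate, which overlapped. It was 6.70 and 5.06 CPM in the TP63 gate, 5.66 and 6.64 CPM in the POU5F1 gate and 3.06 and 2.67 CPM in the CRABP1 gate. The GABRP gate was 2.69-fold above the TP63 gate (adjusted p = 0.00011, edgeR) and did not differ from the COL3A1 gate beyond the spread (adjusted p = 0.62).

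ITGB1, the common beta partner, had the smallest ratio between its highest and its lowest gate, 1.72 in mean CPM. It was at 363 and 375 CPM in the GABRP gate, 335 and 364 CPM in the COL3A1 gate and 311 and 280 CPM in the CRABP1 gate. The TP63 gate had 235 and 237 CPM and the POU5F1 gate 219 and 211 CPM. The GABRP gate was 2.07-fold above the POU5F1 gate (adjusted p = 7.36e-09, edgeR). The TP63 and CRABP1 gates did not differ beyond the spread (log2 difference -0.15, SE 0.06, adjusted p = 0.071), but did so with the library number as a replicate block (adjusted p = 0.032). At 10000 UMIs per cell an ITGB1 UMI was found in a mean of 84.6% of cells of the POU5F1 gate and 95.1% of the COL3A1 gate.

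Each gate was also set against the mean of the other 4 gates. In the GABRP gate 8 of the 10 members were higher and ITGAV was lower (log2 difference -0.25, SE 0.06, adjusted p = 0.0048, edgeR), where 55.1% of all genes tested were called, 30% higher and 25.1% lower. Among the pairs of gates, ITGAV in the GABRP gate was called lower only against the COL3A1 gate (log2 difference -1.30) and was higher than in the POU5F1 gate (0.31). In the TP63 and CRABP1 gates ITGAV likewise lay between the POU5F1 and COL3A1 gates. ITGAV lost its call as lower in the GABRP gate with the gate at 50% of the 99th percentile (-0.18, adjusted p = 0.052) and with the top 300 cells of each gate (-0.15, adjusted p = 0.12). It was larger with the gate at 10% (-0.35, adjusted p = 4.9e-05, edgeR) and without TMM scaling (-0.50, adjusted p = 1.48e-05, edgeR). ITGA5 was not called there (log2 difference 0.20, adjusted p = 0.054). It was called higher under 5 alternatives, the replicate block among them (adjusted p = 0.033), and was at -0.053 without TMM scaling (adjusted p from 4.75e-05 to 0.98 over its 12 tested alternatives). Its mean of 15.0 CPM in the gate lay below the 23.3 CPM of the other gates. The higher members ran from ITGB1 (log2 difference 0.71, SE 0.05) to ITGA3 (2.96, SE 0.09) and ITGB6 (5.16, SE 0.12, a value that depends on how the low counts of the CRABP1 gate are treated and is no bound). ITGB6 was at 6.61 without library 1 and 4.84 without library 2. ITGB4 was called higher (0.86, SE 0.19) although its 6.43 CPM lay below the POU5F1 and TP63 gates, with the COL3A1 gate at 14 UMIs in all; it was at 0.42 without library 1 and 1.41 without library 2. The median over the 10 members was 1.41, against 0.00013 over all genes tested.

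In the TP63 gate 5 members were called higher and 3 lower, where 42.4% of all genes were called, 22.6% higher and 19.8% lower. ITGA3 (log2 difference 1.80, SE 0.09), ITGB3 (1.45, SE 0.19), ITGB5 (1.02, SE 0.07) and ITGB4 (0.82, SE 0.19) were higher, and ITGA5, ITGB1 and ITGAV were lower. ITGB6 was the fifth called higher (1.42, SE 0.19), which holds for a mean of logs that the 3 UMIs of the CRABP1 gate pull down: its mean of 8.65 CPM in the TP63 gate lay below the 16.2 CPM of the other gates. Its log2 difference was 3.01 without library 1 and 0.95 without library 2. The 2 not called were ITGA2 (-0.38, adjusted p = 0.14), called lower under 2 alternatives, and ITGA6 (-0.023, adjusted p = 0.81). With cells past more than 1 threshold kept, ITGA6 was called higher (0.34, adjusted p = 0.00098, edgeR). Such cells were then in the sums of more than 1 gate, so this p does not come from independent sums. The POU5F1 gate had the reverse balance: 1 member was higher and 8 were lower, where 56.3% of all genes were called, 28.1% higher and 28.2% lower. The single higher member was ITGB4 (log2 difference 1.30, SE 0.18, adjusted p = 3.71e-05, edgeR), and the lower ones included ITGA3 (-1.07), ITGA5 (-1.04) and ITGB3 (-1.15). ITGB3 lost this call with the gate at 50% of the 99th percentile (-0.70, adjusted p = 0.061) and with the top 300 cells of each gate (-0.79, adjusted p = 0.065). ITGB6, also called lower in the POU5F1 gate (-1.08, SE 0.35, adjusted p = 0.019), was 0.26 in library 2 alone, without library 1. It lost its call with the gate at 10% (adjusted p = 0.22) and with thinned cells (adjusted p = 0.10). ITGA2 was not called (-0.37, adjusted p = 0.11), but was called lower under 4 alternatives.

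In the CRABP1 gate no member was called higher and 8 were called lower, where 41.2% of all genes were called, 19.4% higher and 21.7% lower. ITGA3 (log2 difference -1.91, SE 0.18), ITGA2 (-1.90, SE 0.32), ITGB3 (-1.66, SE 0.41) and ITGB5 (-1.46, SE 0.11) had the largest differences beside ITGB6. ITGB3 rests on 9 UMIs there: it was at -2.48 without library 1 and -0.98 without library 2, and lost its call with the gate at 50% (-0.97, adjusted p = 0.11). ITGAV (-0.23, SE 0.08, adjusted p = 0.030) lost its call under 5 alternatives. ITGB1 was lower by 0.17 on the log2 scale and turned to 0.06 higher, not called, when sums were scaled by total UMIs alone. The 2 not called were ITGB4 (0.096, adjusted p = 0.82) and ITGA6 (-0.040, adjusted p = 0.74), the latter called higher with the gate at 10% (0.31, adjusted p = 0.038). In the COL3A1 gate 4 members were higher, 4 lower and 2 not called, where 49.7% of all genes were called, 25.3% higher and 24.4% lower. ITGA5 (2.63, SE 0.07), ITGAV (1.37, SE 0.06), ITGA2 (1.24, SE 0.20) and ITGB1 (0.42, SE 0.05) were higher, and ITGB4 (-3.08, SE 0.36), ITGA3 (-1.78, SE 0.16), ITGA6 (-0.84, SE 0.08) and ITGB5 (-0.48, SE 0.09) were lower. ITGB4 was at -2.48 without library 1 and -3.88 without library 2, and ITGA2 at 1.68 and 0.75. The 2 not called were ITGB3 (-0.65, adjusted p = 0.11), called lower under 4 alternatives, and ITGB6 (-0.71, adjusted p = 0.12), called lower under 5 and at -2.56 with the gate at 50%. These comparisons share gates, so the gates of a member are not independent of each other.

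**Figure D2:**
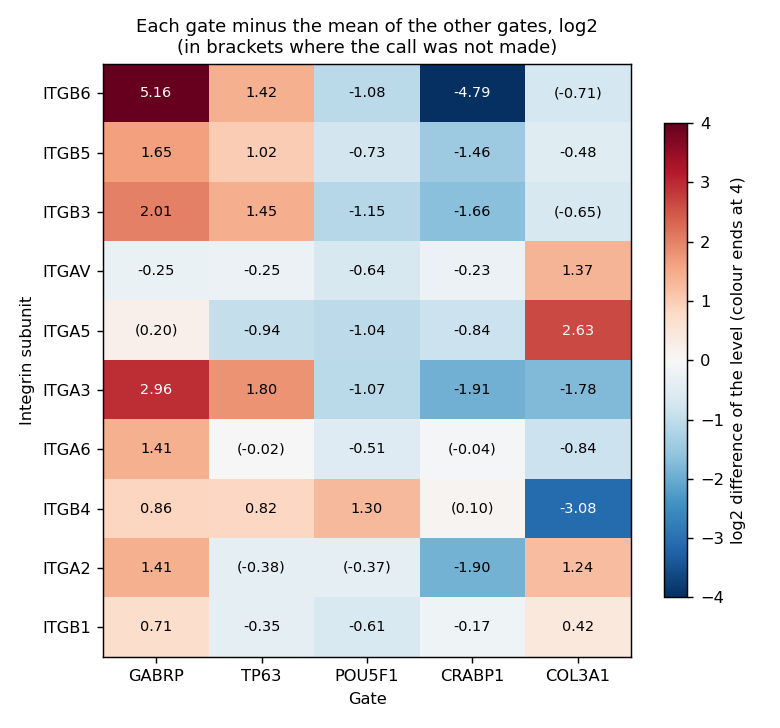
Log2 difference between each gate (columns) and the mean of the other 4 gates for the 10 integrin subunits (rows), from the edgeR fit over 10 sums, with red for higher, blue for lower and brackets where the adjusted p was 0.05 or more. The GABRP column is red without brackets for 8 members, the POU5F1 and CRABP1 columns are blue without brackets for 8 members each, and the ITGB6 row rests on the 3 UMIs counted in the CRABP1 gate.

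Among cells with GABRP or TP63 the members also varied. The cells past both the GABRP and the TP63 threshold, 340 and 375 in number and left out of the gates, had ITGA3 at 129 and 105 CPM and ITGB5 at 190 and 139 CPM, above both gates. In these cells ITGB6 was at 54.5 and 46.0 CPM, nearer to the GABRP gate (60.6 and 59.2 CPM) than to the TP63 gate (8.13 and 9.17 CPM). The size of the gap in ITGB6 between these gates thus depends on leaving such cells out. When kept, a cell past more than 1 threshold entered the sum of each gate it passed. The sums then shared cells, which by itself narrows the gap. The log2 difference of ITGB6 from the other gates was then 4.38 in place of 5.16 in the GABRP gate. In the TP63 gate it was 2.37 in place of 1.42. ITGA6 was at 105 and 101 CPM in the cells past both thresholds. Whether such cells are doublets was not tested; their median depth was 26174 and 25698 UMIs, against 27470 and 25232 in the GABRP gate and 27716 and 24746 in the TP63 gate.

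The GABRP gate was divided further by TAC3, which encodes a tachykinin peptide, a split chosen after its values were seen and given with no test. The 387 and 306 cells with 3 or more TAC3 UMIs had ITGA3 at 109 and 104 CPM, against 61.0 and 46.9 CPM in the 265 and 294 cells with none. ITGB5 was at 149 and 137 CPM against 81.9 and 70.1 CPM, and ITGA6 at 115 and 114 CPM against 70.4 and 66.9 CPM. ITGA2 was at 18.4 and 18.3 CPM against 9.87 and 7.58 CPM. ITGB6 differed less, at 70.3 and 66.3 CPM against 49.1 and 51.8 CPM, so that cells of the gate without TAC3 still stood above the TP63 gate.

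**Figure D3:**
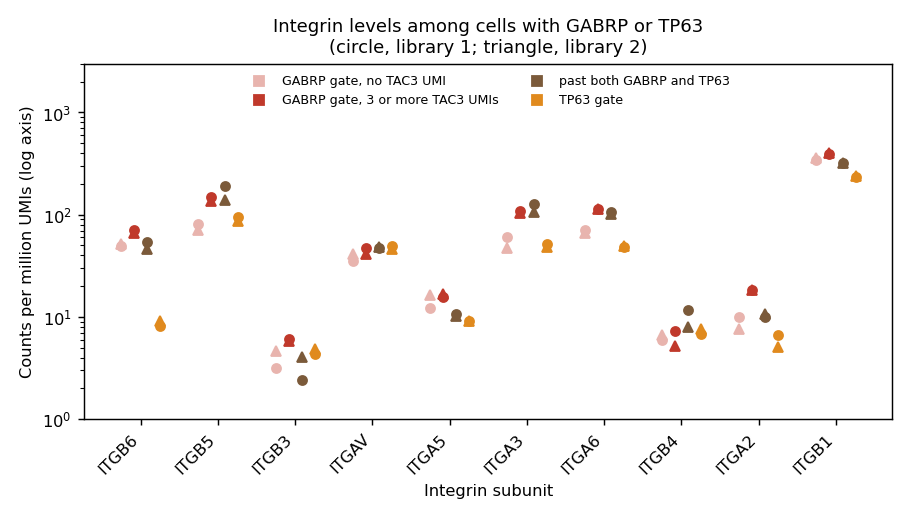
Level of the 10 integrin subunits (x axis) in CPM (y axis, log) in cells of the GABRP gate without a TAC3 UMI, cells of that gate with 3 or more, cells past both the GABRP and TP63 thresholds, and the TP63 gate, for library 1 (circles) and library 2 (triangles). ITGB6 lies between 46 and 70.3 CPM in the groups with GABRP and at 8.13 and 9.17 CPM in the TP63 gate.

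Pairs of subunits were counted in the same cells at 10000 UMIs per cell, as a description. In the GABRP gate 13.6% and 11.9% of cells held UMIs of both ITGAV and ITGB6, where the product of the single shares gives 12.1% and 12.2%. ITGAV with ITGB5 was found in 22.6% and 19.8% of these cells (product 21.4% and 18.9%) and ITGA3 with ITGB1 in 52.2% and 45.6% (product 52.2% and 45.6%). In the COL3A1 gate ITGA5 with ITGB1 was found in 39.9% and 40.4% of cells (product 39.5% and 39.6%). ITGA6 with ITGB4 was found in 2.84% and 3.52% of the POU5F1 gate (product 2.16% and 2.80%), on 18 and 32 cells. In the COL3A1 gate no cell held both, where the product gives 0.109% and 0.254%, less than 1 cell in each library.

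**Figure D4:**
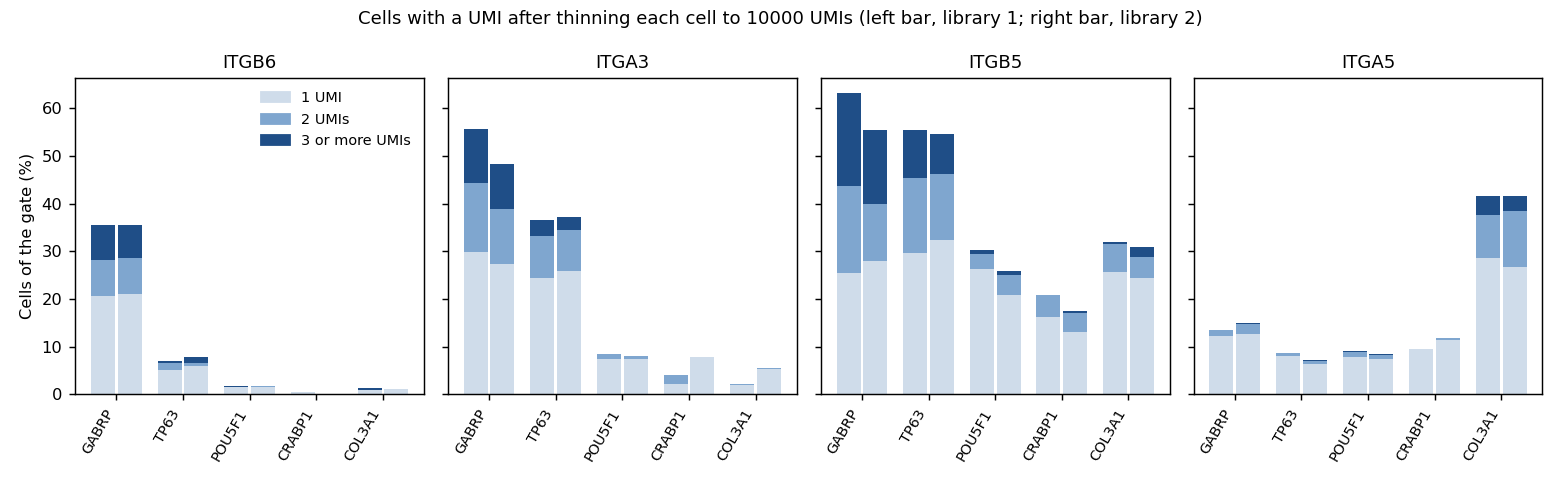
Share of cells in percent (y axis) with 1, 2, or 3 or more UMIs of ITGB6, ITGA3, ITGB5 and ITGA5 in each gate (x axis) after thinning to 10000 UMIs per cell, with library 1 on the left and library 2 on the right of each pair of bars. The GABRP gate has 35.5% and 35.6% of cells with ITGB6, and the COL3A1 gate 41.6% with ITGA5 in each library.

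The matrix proteins that integrins bind were given as a list of 28 genes, of which 26 were tested. In the GABRP gate 16 were higher (61.5%, where 30% of all genes tested were) than in the mean of the other gates and 7 were lower (26.9%, near the 25.1% of all genes), with a median log2 difference of 0.48. Among those with the largest differences were LAMA3 (3.10, SE 0.20, adjusted p = 2.65e-08, edgeR) and TNC, which encodes tenascin-C (2.74, SE 0.07). LAMA3 encodes a chain of an epithelial laminin bound by the ITGA3 and ITGA6 receptors. It was at 9.67 and 9.22 CPM in the GABRP gate, with 1.31 and 0.868 CPM in the POU5F1 gate. TNC was at 303 and 280 CPM in the GABRP gate and at 264 and 249 CPM in the COL3A1 gate, with 14.4 and 15.9 CPM in the POU5F1 gate.

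In the POU5F1 gate none of the 26 ligands was higher, where 28.1% of all genes were, and 24 were lower (92.3%, against 28.2%; median log2 difference -0.93), SPP1, COL1A2 and NID2 having the largest differences. In the COL3A1 gate 20 were higher (76.9%, against 25.3% of all genes) and 2 lower (7.69%, against 24.4%), with a median of 1.77, led by COL1A1 (6.20, SE 0.10), COL1A2 (5.85, SE 0.18) and NID2 (5.38, SE 0.08). The TP63 gate had 8 higher (30.8%, against 22.6% of all genes) and 14 lower (53.8%, against 19.8%), and the CRABP1 gate 8 higher (30.8%, against 19.4%) and 13 lower (50%, against 21.7%). SPP1, which encodes osteopontin, was at 61.4 and 94.3 CPM in the CRABP1 gate, where ITGB6 was at or near 0, and at 23.5 and 9.43 CPM in the GABRP gate. It was at 2.27 and 0.647 CPM in the TP63 gate and at 5.01 and 5.66 CPM in the COL3A1 gate, so its 2 highest gates were the CRABP1 and GABRP gates.

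Genes that act on the inner side of integrins were given as 21 adaptors and kinases, all tested. In the GABRP gate 17 were higher (81%, against 30% of all genes) and 1 was lower (4.76%, against 25.1%), with a median log2 difference of 0.62. FERMT1, an epithelial kindlin that activates integrins, led with 1.80 (SE 0.05, adjusted p = 9.58e-12, edgeR), before the tensin TNS3 (1.31, SE 0.05) and ZYX, which encodes zyxin (1.05, SE 0.05). FERMT1 was at 153 and 147 CPM in the GABRP gate, 122 and 120 CPM in the TP63 gate, 72.1 and 71.0 CPM in the POU5F1 gate and 22.3 and 20.4 CPM in the CRABP1 gate. In the POU5F1 gate none was higher and 16 were lower (76.2%, against 28.2% of all genes). In the CRABP1 gate 1 was higher (4.76%, against 19.4%) and 15 were lower (71.4%, against 21.7%). The COL3A1 gate had 9 higher (42.9%, against 25.3%) and 6 lower (28.6%, near the 24.4% of all genes), led by TNS1 (4.00, SE 0.20) and PARVB (2.25, SE 0.09). The TP63 gate had 8 higher (38.1%, against 22.6%) and 8 lower (38.1%, against 19.8%).

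The 8 genes of hemidesmosomes and of tetraspanins, membrane proteins that associate with integrins, showed 7 higher (87.5%, against 30% of all genes) and 0 lower (against 25.1%) in the GABRP gate, with a median log2 difference of 0.71. CD9 was at 237 and 254 CPM there, 181 and 215 CPM in the POU5F1 gate and 11.5 and 16.6 CPM in the COL3A1 gate (log2 difference of the GABRP gate 2.51, SE 0.09, adjusted p = 4.23e-11, edgeR). CD151, which binds the laminin receptors, was at 55.5 and 54.0 CPM in the GABRP gate (1.00, SE 0.05). COL17A1, a hemidesmosome collagen, stayed at 1.53 CPM or less in every gate. In the POU5F1 gate 1 of the 8 was higher, CD9 (12.5%, against 28.1% of all genes), and 4 were lower (50%, against 28.2%). In the COL3A1 gate 3 were higher (37.5%, against 25.3%) and 5 lower (62.5%, against 24.4%). The TP63 gate had 3 higher and 3 lower (37.5% each, against 22.6% and 19.8%), and the CRABP1 gate 1 higher (12.5%, against 19.4%) and 5 lower (62.5%, against 21.7%). With 8 genes, 1 gene is 12.5% of the list.

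Of the 16 other integrin subunits, 15 were tested. In the GABRP gate 3 were higher (20%, below the 30% of all genes) and 7 lower (46.7%, against 25.1%). The COL3A1 gate had 4 higher (26.7%, near the 25.3% of all genes) and none lower (against 24.4%), led by ITGA8 (4.63, SE 0.19) and ITGA1 (4.13, SE 0.18), which stood at 38.1 and 42.8 CPM and at 22.8 and 30.7 CPM there. The POU5F1 gate had 7 higher (46.7%, against 28.1%) and 4 lower (26.7%, near the 28.2% of all genes). The CRABP1 gate had 4 higher (26.7%, against 19.4%) and 3 lower (20%, near 21.7%), and the TP63 gate 1 higher (6.67%, against 22.6%) and 4 lower (26.7%, against 19.8%). Endothelium and blood cells carry several of these subunits. The summed endothelium list (PECAM1, CDH5 and KDR) was highest in the COL3A1 gate, at 21.3 and 16.6 CPM, of which KDR made up 19.0 and 15.4 CPM, and ranged from 3.43 to 11.1 CPM in the other gates. The summed blood list (PTPRC, SPI1 and GP9) ranged from 2.97 to 6.79 CPM. CDH5 did not exceed 0.381 CPM and PTPRC 0.19 CPM in any gate, and the part of such cells in these values was not tested.

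Genes whose level over the 10 sums was among the most like that of a member, by Pearson's r of log2(CPM + 1) among all genes tested, were CARD10 for ITGB6 (r = 0.993), DISP2 and AGTR2 for ITGA3 (0.997 and 0.992), and RPS21 for ITGB5 (0.992). For ITGA5 they were PDLIM7 and PTPA (0.996 and 0.994), for ITGAV TMEM45A and LAMB4 (0.995 and 0.995), for ITGA6 ARPC3 and FADS6 (0.985 and 0.982), for ITGB4 ZFP42 and TSPAN15 (0.983 and 0.977), for ITGB1 LEPROT and PXN (0.979 and 0.969), for ITGA2 FREM1 (0.966), and for ITGB3 LOC110260216 and RPS29 (0.978 and 0.974). The 10 sums are 5 gates in 2 libraries, so these values mostly describe a likeness of order over 5 gates.

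In pESCs the members were compared with each other per length, as FPKM summed over the transcripts of a gene. The labels number these libraries pESC-1 to pESC-3 and the columns are named IVFP25, PA_4P7 and PAP25, so the values are given by column, in that order, with no test and with depth unknown. The column names differ in their first letters and in the number after P, which the labels do not explain, and IVFP25 does not carry the PA of the others, so the columns may be unlike libraries and no SD over them is given. ITGB1 was the most abundant member at 77.9, 100.3 and 94.5 FPKM. ITGB5 was at 20.0, 23.9 and 19.7 FPKM, ITGA6 at 17.01, 21.5 and 19.8 FPKM and ITGB4 at 14.2, 15.8 and 15.2 FPKM. ITGB5 and ITGA6 overlapped, while ITGB4 was below both in all 3 columns.

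ITGAV was at 6.17, 7.90 and 14.1 FPKM and ITGA5 at 7.98, 7.22 and 11.5 FPKM, which overlapped, and ITGA3 was at 6.00, 3.50 and 5.81 FPKM. Of the ITGAV transcripts, XM_021074688.1 was listed at 5.71, 7.60 and 10.1 FPKM and NM_001083932.1 at 0.456, 0.296 and 3.96 FPKM, both highest in the PAP25 column. FN1, which encodes the fibronectin bound by ITGA5, was also high in the PAP25 column (71.3 FPKM, against 11.5 and 14.4 FPKM). ITGA2 was at 0.398, 0.822 and 0.803 FPKM and ITGB3 at 0.247, 0.431 and 0.476 FPKM. ITGB6 was listed at 0 in all 3 columns for each of its 8 transcripts. Of all 29886 gene symbols, 18596, 18351 and 18680 were above 0 in the columns. Of the listed partners, 19 of 21 adaptors and kinases and 16 of 26 ligands reached a mean of 1 FPKM over the 3 columns. So did 7 of 8 hemidesmosome and tetraspanin genes and 4 of 16 other integrin subunits. Of all 29886 gene symbols, 11520, 11575 and 11868 reached 1 FPKM in the single columns.

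**Figure D5:**
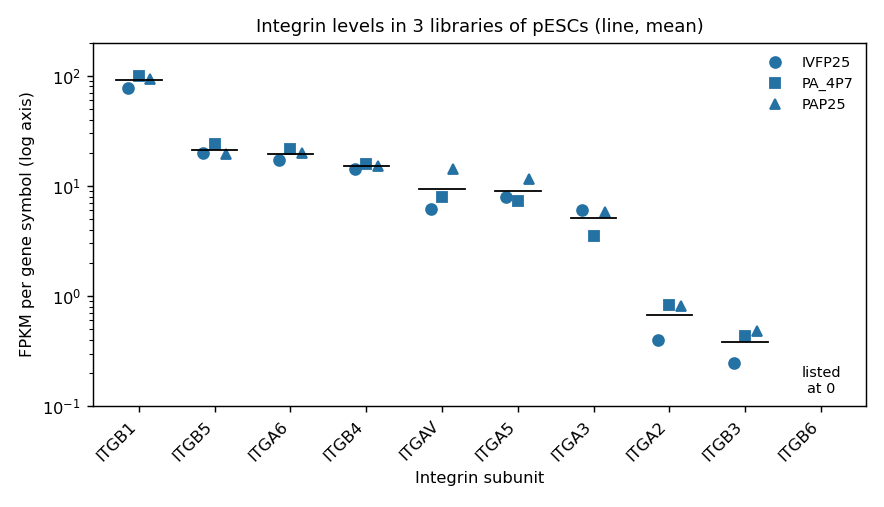
FPKM per gene (y axis, log) of the 10 integrin subunits (x axis, ordered by mean) in the 3 pESC columns, with a line for the mean. ITGB1 lies above all other members, ITGA2 and ITGB3 below 1 FPKM, and ITGB6 is listed at 0 in each column.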

How the data were processed

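The authors' deposited single-cell files hold UMI counts per gene and barcode for 2 blastoid libraries, made per the labels with Cell Ranger 7.1.0 on susScr11 (Sscrofa11.1); the notes also name Seurat 4.3.0. The deposited pESC table holds FPKM per transcript in 3 columns, for which the labels name Trim Galore 0.6.4, HISAT2 2.2.1 and StringTie 2.2.1. FPKM were summed per gene symbol here.

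Barcodes were kept by Cell Ranger's order-of-magnitude rule, which left 7369 and 8175 cells (lowest 11223 and 9807 UMIs; medians 29728 and 27588) of 289452283 and 302211552 UMIs in all. Cells were gated as described, and no doublet caller was run. UMI counts were summed per library and gate, 10 sums, and tested in edgeR 4.0.16 (TMM, filterByExpr, glmQLFTest; R 4.3.3), with adjusted p over 18019 genes; the fit was checked on simulated counts. The library number pairs the gates of 1 library, which come from the same cell suspension; correlations of deviations within a library were 0.055 to 0.193. CPM in the text divide by total UMIs, while log2 differences are TMM-scaled; without TMM the median over all genes shifts by -0.25 in the GABRP gate and by 0.20 in the CRABP1 gate. Motif windows were read from the RefSeq genome.

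The members, lists and gates were chosen with earlier results of these data known. All 10 members are named in every gate. Of each list at most 3 called genes with the largest difference per gate are named by rule, and SPP1 outside its named gates, FN1 and the TAC3 split were singled out after their values were seen. ITGB8 was also named outside this rule. A few genes that these rules would name are not reported here.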

Additional observations from a re-analysis of the deposited data

How the results depend on the processing

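Each gate was recomputed under alternatives to scaling, test, count filter, gate threshold and cells used. Over integrins, gates and alternatives, 644 values kept direction and, where tested, side of the threshold; 20 passed the threshold only under an alternative and 13 no longer passed it, both in the same direction, 12 turned direction (2 of them newly called and 1 no longer called), and 11 from 1 library alone, with no test, moved by more than the spread or, not called before, turned sign. With the library number as a replicate block, the GABRP gate called 10 of 10 members in place of 9 (ITGA5, adjusted p = 0.033, edgeR), where 59.1% of all genes were called in place of 55.1%, and the pair of TP63 and CRABP1 gates differed for ITGB1 (adjusted p = 0.032). ITGAV in the CRABP1 gate lost its call under 5 alternatives, among them the DESeq2 Wald test (adjusted p = 0.067, in a range of 0.013 to 0.95), and ITGAV in the GABRP gate under 2 (adjusted p = 0.052 and 0.12). ITGB1 in the CRABP1 gate lost it with the gate at 10% (adjusted p = 0.40).

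The sign changed in 17 values, of 8 of the 50 combinations of an integrin and a gate, of which 6 were not called to begin with. ITGA6 in the TP63 gate (-0.023) was called higher, at 0.34, with cells past more than 1 threshold kept (adjusted p = 0.00098). It was not called at 0.10 with the gate at 50%, 0.086 with the top 300 cells, 0.0066 with cells over 2 times the median UMIs left out, 0.0088 with thinned cells, and was at 0.0089, with no test, without blastoid replicate 2. ITGA6 in the CRABP1 gate (-0.040) was called higher, at 0.31, with the gate at 10% (adjusted p = 0.038), and was at 0.18 without scaling beyond total UMIs and 0.048 without blastoid replicate 1. ITGA5 in the GABRP gate was at -0.053 without that scaling and at -0.0035 with cells past more than 1 threshold kept. ITGB4 in the CRABP1 gate (0.096) was at -0.070 with thinned cells and at -0.19 without blastoid replicate 2. In the COL3A1 gate, ITGB3 was at 0.0057 and ITGB6 at 0.17 without blastoid replicate 1. Of those called, ITGB1 in the CRABP1 gate was at 0.056 without scaling, and ITGB6 in the POU5F1 gate at 0.26 without blastoid replicate 1 and at -1.29 without blastoid replicate 2. For ITGB6 the only UMIs of the CRABP1 gate are left out with library 1; for the others the cause was not tested. Keeping cells past several thresholds and dropping the scaling were chosen after seeing the data. With such cells kept, the sums of several gates shared cells, so the adjusted p of that alternative do not come from independent sums.

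Unthinned, the mean shares of cells with an ITGB6 UMI were 57.9% in the GABRP gate, 14.3% in the TP63 gate, 6.33% in the POU5F1 gate, 0.843% in the CRABP1 gate and 2.89% in the COL3A1 gate, since more UMIs per cell were read. With 2 libraries, levels near 1 CPM (ITGB3, ITGB6 and ITGB4 in their low gates) rest on few UMIs.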
